A study of Rattus norvegicus with 24 samples.

Results

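*Ubd*, the gene of ubiquitin D (FAT10), was followed in rat skin explants exposed to allogeneic or syngeneic lymphocytes. It was chosen by its name on the array. It is represented by 1 probe of the 8453 probes and by 1 gene of the 7210 genes on the array, and this probe was spotted 3 times on each of the 24 arrays. The gene was selected with its difference between the samples of a rat already known, so that this difference is given as a description without a test.

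The explants were skin pieces from the paws of male BN rats aged 15 weeks, and 12 rats were used. By the labels, each pair of samples bears the number of 1 rat, with 1 explant kept for 3 days with PVG lymphocytes (allogeneic), and another with BN lymphocytes (syngeneic control), in both cases after 7 days of mixed lymphocyte reaction (MLR). The allogeneic culture serves as an in vitro model of a graft-versus-host reaction (GVHR), in which donor lymphocytes attack host tissue, and the syngeneic culture lacks the strain difference but holds added lymphocytes too. The 2 RNA samples of a rat were hybridized together in Cy3 and Cy5 to 1 array and with exchanged dyes to another, so that the 24 arrays hold 12 replicates. No circulation supplies an explant, and RNA from lymphocytes that remained attached after washing is part of the sample. In such bulk RNA, fewer cells of a type and less RNA per cell cannot be told apart.

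FAT10 is a small modifier with 2 ubiquitin-like domains in a row and a free diglycine end. It is activated by Uba6, passed on by the conjugating enzyme Ube2z and attached to target proteins, which are then degraded by the proteasome together with the modifier. The gene lies in the MHC and is known to be induced by IFN-γ and TNF, and to be expressed in mature dendritic cells and in lymphoid tissue.

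The sequences behind the measurements are given first, since all values rest on a single probe. The probe has 60 bases and lies, per the file headers, in the rn3 build at chr20:1476014-1476073 on the minus strand. Whether it lies in the coding part of the transcript or beyond it was not determined, as no gene model of that build was used here. Its first 30 bases are shown, to identify what was hybridized. The promoter is shown because it is the region through which inducing cytokines would act on the gene. RefSeq lists 1 promoter window of *Ubd* in build GRCr8, and its 250 bases before the start of the gene are at chr20:1392686-1392935, on the minus strand. Capitals mark the only match to the motifs searched.
Ubd probe, first bases: gtgactacgggagtggggtgatgagaagct
Ubd promoter: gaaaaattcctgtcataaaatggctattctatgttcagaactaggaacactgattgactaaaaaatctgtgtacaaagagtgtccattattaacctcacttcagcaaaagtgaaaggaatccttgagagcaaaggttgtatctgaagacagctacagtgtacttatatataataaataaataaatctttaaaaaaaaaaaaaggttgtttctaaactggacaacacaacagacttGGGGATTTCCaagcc

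Both strands were searched for 4 motifs. The usual degenerate kB consensus, the binding motif of NF-κB, had 1 match, from 15 to 6 bases before the start and in the direction of the gene. The same consensus was found in 6.33% of the 33469 promoter windows of this length. The ISRE core GAAANNGAA and the GAS core TTCNNNGAA, which are motifs of interferon-responsive promoters, had 0 matches in the *Ubd* window, against 8.12% and 7.67% of all windows. The TATA box TATAAA had 0 matches too, against 12.9% of all windows. These are matches of letters, and binding was not measured.

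In both channels, each of the 72 spots of *Ubd* exceeded background clearly, and 0 were saturated. The scanner software marked 3 spots on 3 arrays as outliers, and these were left out. When the allogeneic sample carried Cy3 (12 arrays), its mean spot signal was between 144 and 341 (median 173), while the syngeneic sample in Cy5 gave 474 to 1970 (median 1120). With exchanged dyes and without array 1 of rat 10, the allogeneic sample in Cy5 gave 243 to 486 (median 310) and the syngeneic sample in Cy3 gave 249 to 916 (median 468), over 11 arrays. The local background was 46.3 to 56.7 in Cy3 and 71.7 to 115 in Cy5. By the dye labels, the allogeneic signal was thus low in every rat, while the syngeneic signal varied widely. The direction given by the labels is opposite to that of the study, and with exchanged labels the names of both samples would change places here and in all levels below. Between the lowest and the highest rat, the signal of the allogeneic sample differed 2.36-fold in Cy3 and 2-fold in Cy5. That of the syngeneic sample differed 3.68-fold in Cy3 and 4.15-fold in Cy5. These signals include the background, which narrows the folds most where the signal is low, as in the allogeneic sample.

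Array 1 of rat 10 stood apart from the other 23 arrays. Its median spot intensity was 6668 in Cy3 and 25640 in Cy5, against 135.5 to 216.4 and 269.2 to 414.9 on the other arrays, and its *Ubd* spots had means of 14600 in Cy3 and 79300 in Cy5. Over all probes, its log ratios correlated with those of the other array of the rat with r = 0.13, while the median of this correlation over the 12 rats was 0.67. In rat 8, the 2 arrays resembled each other (r = 0.94), but the rat had the lowest correlation with the mean of the other rats over genes (0.21, against 0.48 to 0.81 for the other 11 rats). Results are therefore also given without array 1 of rat 10, and without rat 8 where it matters.

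The log2 ratio of *Ubd*, allogeneic over syngeneic, was below 0 in 12 of 12 rats. By the dyes given in the labels, the direction is opposite to the one given by the study, here and for all signed values. The study reports *Ubd* as higher in the allogeneic explants by the arrays. It reports the same by quantitative PCR on part of these sample pairs, against explants with syngeneic lymphocytes and against explants in medium alone. For human skin explants with alloreactive lymphocytes, it reports *UBD* as higher in every sample tested, against medium alone. An overall turn of the sign would exchange lower and higher, and would leave every correlation between genes as it is. The lowest ratio was -2.52 (rat 11), the median -1.39 and the highest -0.56 (rat 10), with a mean of -1.43 ± 0.65 (SD, n = 12 rats). The mean corresponds to a level 2.7-fold higher in the syngeneic sample, and the folds of single rats were between 1.47 and 5.74. Without array 1 of rat 10 the mean was -1.50 ± 0.59, and the highest ratio was then -0.62 (rat 3).

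**Figure D1:**
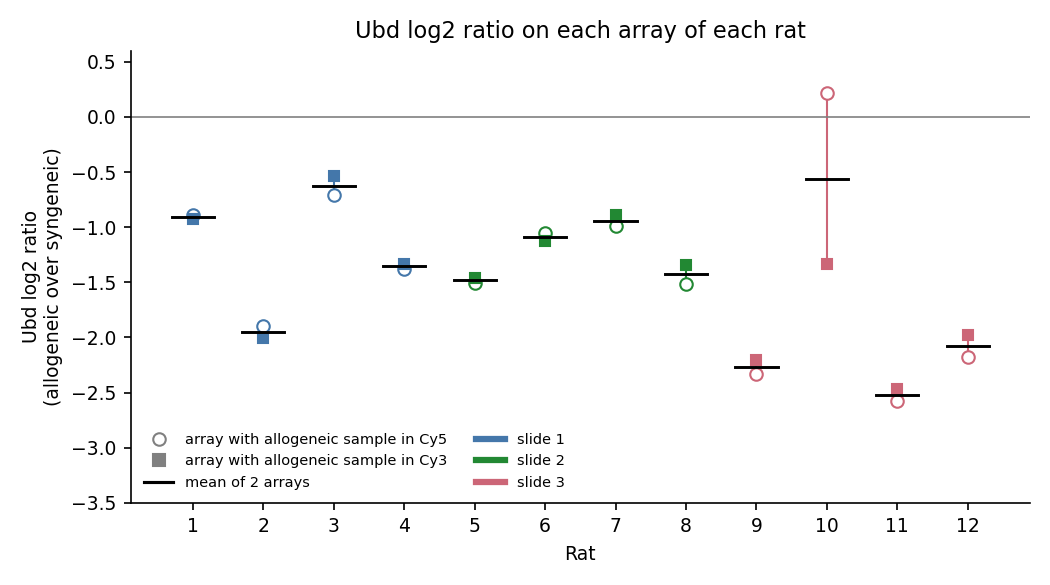
The log2 ratio of *Ubd* (allogeneic over syngeneic, vertical axis) is shown for both arrays of each of the 12 rats, with circles for the allogeneic sample in Cy5, squares for Cy3, black lines for the mean of both arrays and colors for the slide. The arrays of a rat lie close together apart from those of rat 10, whose array 1 is the only one above 0 (0.22).

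Rats differed in *Ubd* far more than the repeated arrays of a rat did. In the 11 rats other than rat 10, the 2 arrays differed by 0.03 to 0.20 (median 0.10) on the log2 scale, and the SD between arrays of a rat was 0.085, against an SD of 0.62 between rats. The 2 arrays correlated with r = 0.99 over these 11 rats, and the intraclass correlation was 0.98. In rat 10, array 1 gave 0.22 and array 2 gave -1.34, and with this rat the intraclass correlation was 0.77. The 3 spots of an array had a median SD of 0.092. The 2 dye orientations of *Ubd* differed by 0.07 ± 0.48 (SD, n = 12, Cy5 minus Cy3, limma adjusted p = 0.669), while 51.9% of all genes differed between orientations by the same test. Without rat 10 the difference was -0.07 ± 0.10, with a limma adjusted p of 0.0711.

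The 12 rats were distributed over 3 slides, with 4 rats each. The mean log2 ratio of *Ubd* was -1.21 ± 0.58 on slide 1, -1.235 ± 0.26 on slide 2 and -1.86 ± 0.88 on slide 3 (SD, n = 4 each), and without array 1 of rat 10 the value of slide 3 was -2.05 ± 0.51. The 3 lowest rats of the study, 11, 9 and 12, were all on slide 3. Slides hold different rats, so that slide and animal cannot be told apart. Among the 7210 genes, *Ubd* had the 13th lowest mean ratio, and 3.55% of genes had a larger SD between rats. Of the 212 MHC genes it had the third lowest mean and the largest SD. The median gene had a ratio of 0.01 and an SD of 0.13.

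When both channels were put on a common scale (loess, then average intensities made alike between arrays), the level of *Ubd* on the log2 scale was 8.08 ± 0.26 in the allogeneic and 9.57 ± 0.62 in the syngeneic samples (SD, n = 12, without array 1 of rat 10). Allogeneic levels were between 7.62 and 8.67 (median 8.06), and syngeneic levels between 8.61 and 10.63 (median 9.67). The ranges of both groups overlapped only slightly, since the highest allogeneic level (rat 10, 8.67) exceeded the lowest syngeneic level (rat 3, 8.61), and within each rat the syngeneic level was the higher one. On this scale and by the labels, rats differed mainly in the syngeneic sample, or, with exchanged labels, in the allogeneic one. The offset of 50 added to the intensities narrows the spread of low levels most. How far this lowers the spread of the sample with the low signals was not tested. The ratio had r = -0.91 with the syngeneic level and r = 0.10 with the allogeneic level over the 12 rats. This is a description, since the ratio is made from both levels. With array 1 of rat 10 included, these values were -0.34 and 0.43.

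**Figure D2:**
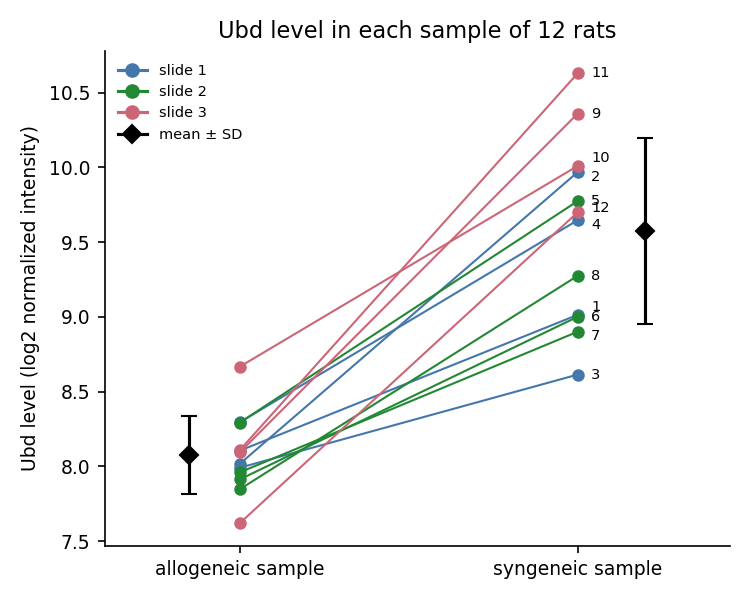
Normalized level of *Ubd* (log2 intensity, vertical axis) in the allogeneic and the syngeneic sample of each rat, joined by a line and colored by slide, with rat numbers at the right and the mean ± SD (n = 12) as diamonds, without array 1 of rat 10. Syngeneic levels spread from 8.61 to 10.63, allogeneic levels from 7.62 to 8.67.

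It was then asked which genes shared the pattern of *Ubd* across the rats. For this, the log2 ratios of each of the other 7209 genes were correlated with those of *Ubd* over the 12 rats, and p-values came from 100000 permutations (two-sided). After adjustment over all genes, 0 genes passed 0.05 by Pearson correlation, and the lowest adjusted permutation p was 0.0721. A gene alone at the smallest possible permutation p, 1e-05, would have had this same adjusted p and could not pass. Without adjustment, 291 genes (4.04%) had a positive and 235 (3.26%) a negative correlation at a permutation p under 0.05. With the ratio of *Ubd* as a covariate in limma, 1 gene passed the adjusted threshold, *Spn* (limma adjusted p = 0.0213). Both ratios of a pair come from the same arrays, so that errors of an array are shared.

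Genes were ranked by their Pearson correlation with *Ubd* among 6402 genes above background in either channel on at least 12 arrays. The highest correlation was that of *Spn*, which encodes the leukocyte sialoglycoprotein CD43 (r = 0.93, rho = 0.95, permutation p = 4e-05, adjusted 0.0721). The ratio of *Spn* was between -0.94 and 0.12 (median -0.38), with its 4 lowest values in rats 11, 9, 12 and 2, the same rats that had the 4 lowest values of *Ubd*. Next came *Il2ra*, the alpha chain of the interleukin 2 receptor, which appears on activated T cells (r = 0.90, rho = 0.85, permutation p = 4e-05, adjusted 0.0721). Its ratio was below 0 in 12 of 12 rats, from -0.67 to -0.05, and 8 rats lay close together while rats 2, 9, 11 and 12 were lower. *Il2rb*, the beta chain of the same receptor, had r = 0.87 and rho = 0.76 (permutation p = 0.00024, adjusted 0.192), with ratios from -1.30 to -0.28.

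The other genes of the 10 most alike had r between 0.85 and 0.89. They were a transcript of the T cell receptor gamma chain (r = 0.89), *Camk4* (a calcium-dependent kinase, measured by a probe for its transcript calspermin, 0.88), *Ptpn5* (a tyrosine phosphatase, 0.88), *Gpr132* (a receptor of leukocytes, 0.86), *Klrb1a* (an NK cell receptor, 0.86), *Cd6* (a T cell surface protein, 0.85) and *Cd72* (a B cell surface protein, 0.85). The T cell receptor transcript was dim, being above background on 10 arrays in the allogeneic and on 21 in the syngeneic channel, and entered the ranking only through the syngeneic channel. Adjusted permutation p of the 10 genes was between 0.0721 and 0.266 for r, and between 0.108 and 0.435 for rho. Without rats 11 and 9, which were farthest from the median of *Ubd*, r of the 10 genes was between 0.74 and 0.87. With slide means removed it was between 0.80 and 0.92. A slide holds only 4 rats, too few for a correlation within it.

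Without array 1 of rat 10, r of the same 10 genes was between 0.81 and 0.92, and 5 of them (*Spn*, *Il2ra*, *Camk4*, *Ptpn5* and *Il2rb*) were again among the 10 most alike. The others were then *Sphk1*, *Tbx21*, *Stat5a*, *Il21r* and *Stat4*. *Tbx21* encodes T-bet, a transcription factor of IFN-γ producing lymphocytes (r = 0.89, permutation p = 1e-05, the smallest p possible, adjusted 0.0721), and *Stat4* and *Stat5a* encode signal transducers of interleukin 12 and interleukin 2. Again, 0 genes passed the adjusted threshold, while 3.25% of genes had a positive and 2.48% a negative correlation at an unadjusted permutation p under 0.05.

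Of the 10 most alike genes, 7 were called lower in the allogeneic sample by limma (adjusted p under 0.05, 12 rats), against 7.53% of all other genes. The 10 genes were picked from these same arrays, so that this count is a description and no test of enrichment. Among the 7 is the T cell receptor transcript, which entered the ranking only through the syngeneic channel. Of the 7 calls, that of *Gpr132* was lost when any of 7 single rats was left out, and that of *Klrb1a* when either of 2 was. Their mean ratios were smaller than that of *Ubd*. *Cd6* had -0.63 ± 0.49 (SD, n = 12, limma adjusted p = 0.0063), *Il2rb* -0.63 ± 0.37 (0.00115) and *Spn* -0.42 ± 0.34 (0.00715), while *Camk4*, *Ptpn5* and *Cd72* did not pass, with -0.10, -0.31 and -0.04. In the syngeneic channel alone, the levels of the 10 genes had r between 0.49 and 0.85 with the level of *Ubd*, and in the allogeneic channel between -0.13 and 0.81 (n = 12, without array 1 of rat 10, as a description).

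At the opposite end, *Ereg*, which encodes the growth factor epiregulin, had r = -0.86 (rho = -0.82, permutation p = 0.00068, adjusted 0.285). It was followed by *Ptpn20* (a tyrosine phosphatase, -0.84), a transcript similar to serine/arginine-rich protein specific kinase 1 (-0.84), *Irx4* (a homeobox factor, -0.81) and *Snx15* (a sorting nexin, -0.81). Of these, only the kinase transcript passed limma, with a higher level in the allogeneic sample (0.44 ± 0.34, SD, n = 12, adjusted p = 0.0069). *Ereg* had ratios from -0.29 to 0.53 and was below 0 in 6 of 12 rats.

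**Figure D3:**
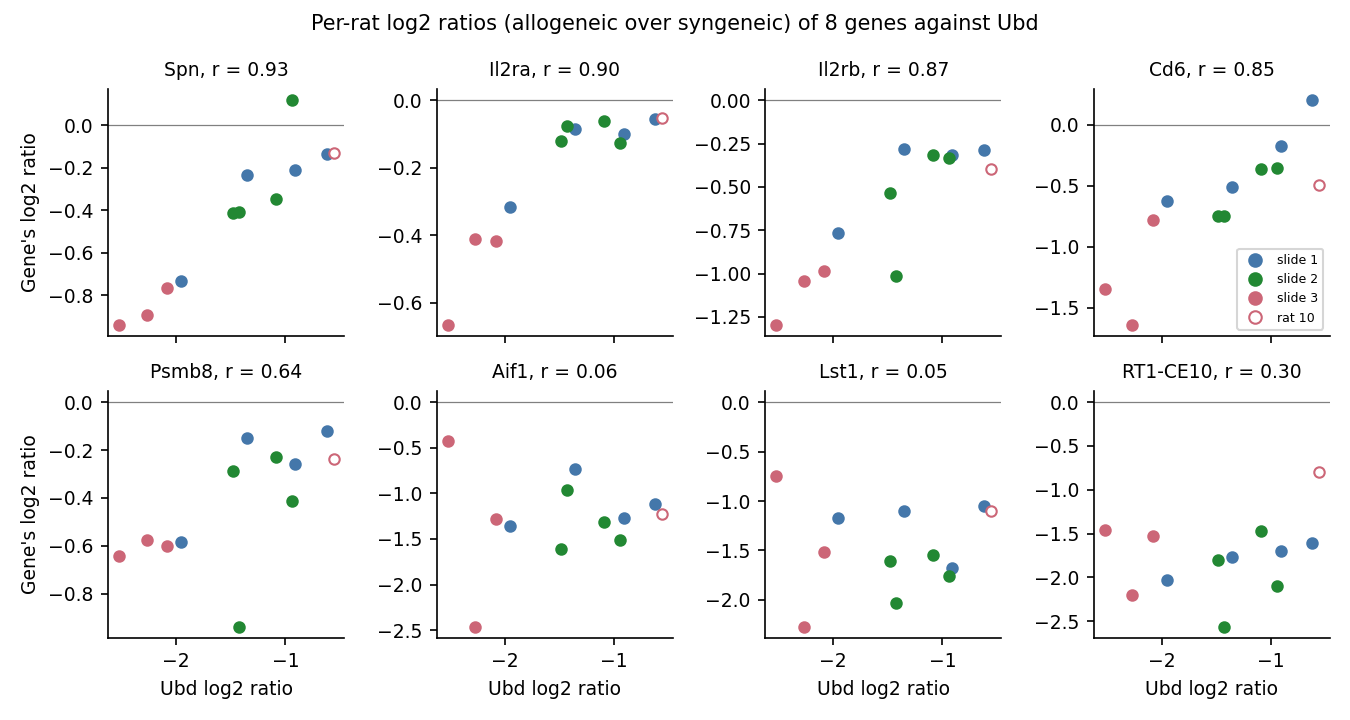
Log2 ratio (allogeneic over syngeneic) of 8 genes (vertical axes) against that of *Ubd* (horizontal axes), 1 point per rat, colored by slide, with rat 10 as an open circle and Pearson's r above each panel. *Spn*, *Il2ra*, *Il2rb* and *Cd6* follow *Ubd* (r = 0.85 to 0.93). By the labels, *Aif1* and *Lst1* are lower in all 12 rats without following *Ubd* (r = 0.06 and 0.05).

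Lists of genes around FAT10 were described next, by counts of genes that passed limma over all 7209 other genes (adjusted p under 0.05). Over all these genes, 7.53% were called lower and 8.66% higher in the allogeneic sample, and 7.84% and 9.72% without array 1 of rat 10. The enzymes that activate and conjugate FAT10, Uba6 and Ube2z, were not measured. Of 16 genes listed for conjugation and degradation, 5 were on the array, of which 1 was lower. This was *Sqstm1*, which encodes the autophagy receptor p62, with -0.19 ± 0.09 (SD, n = 12, limma adjusted p = 0.000449). *Adrm1*, the proteasomal ubiquitin receptor, had -0.03 ± 0.18, and *Vcp*, an unfolding ATPase, 0.13 ± 0.29, without passing. Over the 5 genes, r with *Ubd* was between -0.32 and 0.03.

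Of the other ubiquitin-like modifiers and their enzymes, 7 were measured and 0 passed by limma (0 also at an unadjusted p under 0.05 and by the ordinary one-sample test). *Isg15*, the interferon-induced modifier that like FAT10 has 2 ubiquitin-like domains, had a ratio of 0.05 ± 0.34 (n = 12). It had r = 0.68 and rho = 0.57 with *Ubd* (permutation p = 0.0173 for r), and *Nedd8*, the activator of cullin ligases, had r = -0.61 (permutation p = 0.0396). Only 3 genes of the constitutive proteasome were measured. These were *Psmb5*, *Psmc3* and *Psmc5*, of which 0 passed by limma, at an unadjusted p under 0.05 or by the ordinary test, with ratios from 0.04 to 0.10 and r from -0.54 to -0.48.

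The immunoproteasome and peptide loading genes process peptides for MHC class I. Of 12 measured genes, 5 were called lower and 0 higher (7 and 0 at an unadjusted p under 0.05, and 4 and 0 after adjustment without array 1 of rat 10, where *Calr* did not pass), with a median ratio of -0.14 against 0.01 for all genes. The catalytic subunits *Psmb8* (-0.42 ± 0.25, limma adjusted p = 0.00127), *Psmb10* (-0.33 ± 0.29, 0.0125) and *Psmb9* (-0.19 ± 0.20, 0.0315) were among them, with the transporter *Tap2* and the chaperone *Calr*. *Psmb8* and *Psmb9* had a Pearson correlation with *Ubd* at a permutation p under 0.05 (r = 0.64 and 0.68, permutation p = 0.0235 and 0.0147, adjusted 0.608 and 0.552). By rank, *Psmb10* (rho = 0.70, permutation p = 0.0141) and *Tap2* (rho = 0.66, permutation p = 0.0234) were under 0.05 too. *B2m*, the light chain of class I molecules, had a ratio of 0.00 ± 0.55 and r = -0.08.

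A list of 17 inflammatory and lymphocyte cytokines and their receptors, which includes the inducers IFN-γ and TNF, was measured in full. Of these genes, 8 were lower and 0 higher. *Il1b*, which encodes the inflammatory cytokine interleukin 1 beta, had the largest difference (-0.98 ± 0.53, limma adjusted p = 0.000691). Its ratio was between -2.00 and -0.39 and below 0 in all 12 rats, and it had r = 0.78 with *Ubd* (rho = 0.69, permutation p = 0.00314). *Ltb* and *Lta*, the lymphotoxins, had -0.54 ± 0.39 (0.0042) and -0.30 ± 0.22 (0.0046), and *Tnfrsf1b*, a TNF receptor, -0.27 ± 0.17 (0.00277). *Tnf* was lower by a small amount (-0.16 ± 0.10, 0.00207), with r = 0.30.

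*Ifng*, the gene of IFN-γ, was dim. It was above background on 7 arrays in the allogeneic and on 10 in the syngeneic channel, with a ratio of -0.05 ± 0.07 that did not pass (limma adjusted p = 0.184). Its ratio had r = 0.65 with that of *Ubd* (rho = 0.55, permutation p = 0.0172). *Il2* was dimmer in the allogeneic channel (above background on 3 arrays, against 9 in the syngeneic one), with -0.14 ± 0.10 (limma adjusted p = 0.00605) and r = 0.80. Of the 17 genes, 5 had a positive r at a permutation p under 0.05, against 4.04% of all genes, and their median r was 0.35 against -0.004 for all genes.

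The factors of the JAK-STAT, IRF and NF-κB pathways changed little. Of 25 measured genes, 4 were lower and 0 higher by limma, and 3 were higher at an unadjusted p. The lower genes were the feedback inhibitors *Socs1* (-0.35 ± 0.24, 0.00377) and *Nfkbia* (-0.32 ± 0.32, 0.0247), the NF-κB subunit *Rel* (-0.22 ± 0.19, 0.0114) and the adapter *Traf2* (-0.19 ± 0.15, 0.00763, limma adjusted p in all cases). *Irf1*, a factor induced by IFN-γ, was the only one with a positive Pearson correlation at a permutation p under 0.05 (r = 0.60, rho = 0.51, permutation p = 0.0414). A count of 1 among 25 genes is near the share of all genes (4.04%). Without rat 8, *Irf3*, an interferon regulatory factor, was called higher (0.13, limma adjusted p = 0.00632).

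Of the genes known to be induced by IFN-γ, as *Ubd* is, 32 were measured, 8 were lower and 1 was higher. The lower ones included *Ctss* (cathepsin S, -1.40 ± 0.61, limma adjusted p = 0.000178), *Plscr1* (a phospholipid scramblase, -1.24 ± 0.33, 6.67e-06), *RT1-DMb* (a class II peptide loading chain, -1.004 ± 0.43, 0.000171) and *Ifi47* (an interferon-inducible GTPase, -0.79 ± 0.30, 0.000104). The chemokine *Cxcl9* was higher (0.34 ± 0.38, 0.0415). The genes with the largest differences were not those most like *Ubd*. *Ctss* had r = -0.06, *Plscr1* 0.28 and *RT1-DMb* 0.11, whereas *Ccl5*, a chemokine of T cells, had r = 0.82 (rho = 0.88, permutation p = 0.00171) with a ratio of only -0.23 ± 0.16. *Cxcl11* had r = 0.78 (permutation p = 0.00254) but was above background on 7 and 8 arrays only. In all, 4 of 32 genes had a positive r at a permutation p under 0.05, against 4.04% of all genes, and the median r was 0.33.

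**Figure D4:**
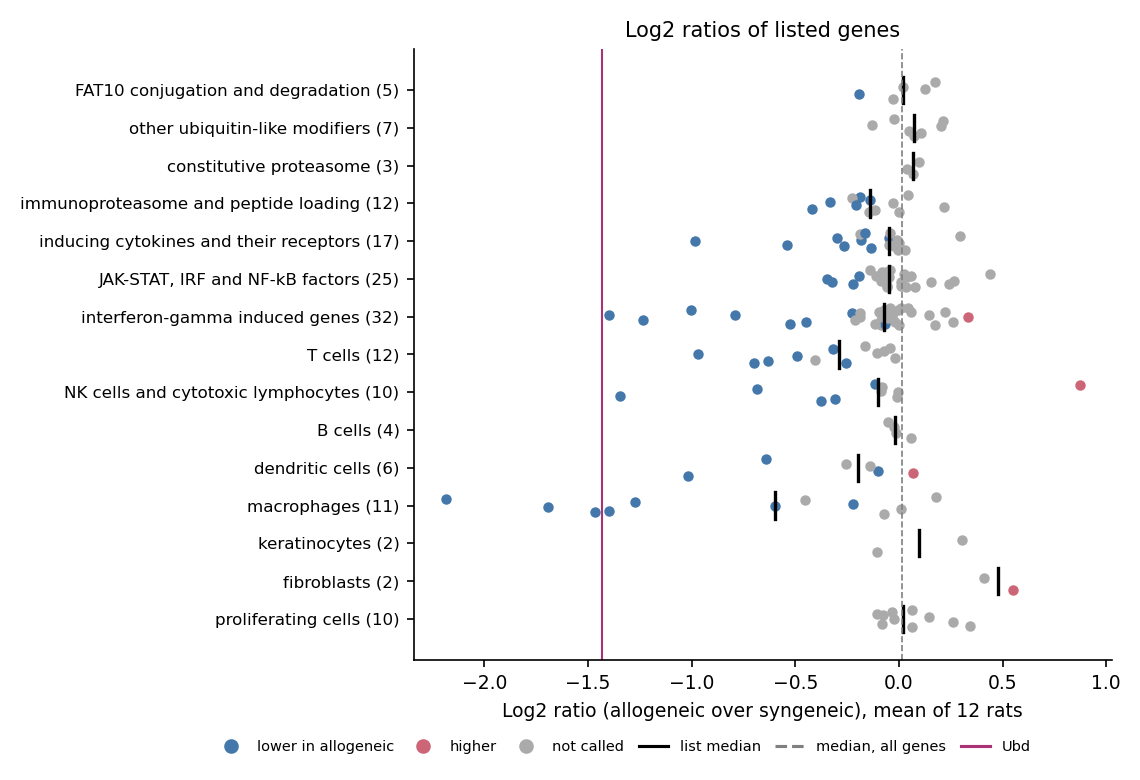
Mean log2 ratio over 12 rats (horizontal axis) of the measured genes of each list (number in brackets), colored by the limma call, with the list median as a black line, the median of all genes dashed and *Ubd* as a purple line. The largest negative ratios are those of macrophage markers, which lie on both sides of *Ubd*.

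Markers of cell types were set beside *Ubd*, since an explant can hold skin cells, resident leukocytes and added lymphocytes. As a check of the tissue, both measured keratinocyte markers, *Cdsn* (corneodesmosin) and *Tp63*, exceeded background in both channels of each of the 24 arrays. Their summed level was 15.19 to 15.92 in allogeneic and 15.04 to 15.94 in syngeneic samples on the log2 scale. The keratins of the list were not measured. The part of any cell type in the result of *Ubd* was not tested.

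Markers of dendritic cells had the highest median correlation with *Ubd* of the 8 marker lists. Of 6 measured genes, 5 had a positive r at a permutation p under 0.05, against 4.04% of all genes, and the median r was 0.76. *Cd83*, a protein of mature dendritic cells, had r = 0.84 (rho = 0.78, permutation p = 0.00091), *Ccr7*, their homing receptor, 0.80 (0.00244), *Cd86* 0.77 (0.00174) and *Cd80* 0.75 (0.00598). *Cd80*, which is also among the genes called lower, was dim. It was above background on 9 arrays in the allogeneic and on 14 in the syngeneic channel. *Cd83* also was lower in the allogeneic sample (-0.64 ± 0.50, limma adjusted p = 0.00607), as was *Ccl22* (-1.02 ± 0.95, 0.0169), with 3 genes lower and 1 higher (*Flt3*, 0.07) in all. Their summed level was lower in the allogeneic sample in 11 of 12 rats, with 11.85 to 13.08 against 12.22 to 13.80.

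T cell markers were called lower in 6 of 12 cases and higher in 0. Of the 12, 7 had a positive r at a permutation p under 0.05, against 4.04% of all genes, with a median r of 0.68. The signaling chain *Cd247* (CD3 zeta) had r = 0.74 (rho = 0.66, permutation p = 0.00552), *Cd3d* 0.73 (0.00561), *Cd3g* 0.72 (0.00833) and *Cd3e* 0.63 (0.0272), but 0 of these 4 passed limma, with ratios of -0.07, -0.16, -0.40 and -0.11. *Cd5* (-0.97 ± 0.84, limma adjusted p = 0.0115) and *Lck* (-0.70 ± 0.51, 0.00421) were lower and had r = 0.82 and 0.78. The chains of CD8, *Cd8a* and *Cd8b*, were lower as well (-0.32 ± 0.22, 0.00384, and -0.49 ± 0.23, 0.00032), but had r of 0.34 and -0.17. The summed level of T cell markers was 11.47 to 12.07 in the allogeneic and 11.82 to 12.78 in the syngeneic samples.

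Of 10 markers of NK cells and cytotoxic lymphocytes, 5 were lower and 1 higher. *Gzmc*, a granzyme, had the largest difference (-1.35 ± 0.68, limma adjusted p = 0.000449) and r = 0.79, and *Nkg7*, a granule protein, had -0.31 ± 0.20 (0.00222) and r = 0.82. *Ncam1* was higher (0.87 ± 0.39, 0.000212). The NK cell receptors *Ncr1* and *Klrk1* had ratios of -0.01 and -0.01 and r of -0.09 and -0.08. All 4 measured B cell markers had a positive r at a permutation p under 0.05 (0.63 to 0.73), against 4.04% of all genes. By limma, however, 0 of these markers passed (0 lower and 1 higher at an unadjusted p, 0 by the ordinary test). Among them, *Ms4a1* (CD20) ranged from -1.15 to 1.69 between rats. Summed levels were 11.30 to 11.90 against 11.33 to 12.86 for NK markers, and 8.735 to 10.08 against 8.85 to 9.58 for B cell markers (allogeneic against syngeneic).

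Macrophage markers differed more between the samples of a rat than any other marker list, with 7 of 11 lower, 0 higher and a median ratio of -0.60. Their median r with *Ubd* was 0.12, and 0 of 11 had a permutation p under 0.05 (by Pearson, with all arrays or without array 1 of rat 10). With all arrays, 4.04% of all genes had a positive and 3.26% a negative correlation at this cut. A count of 0 among 11 genes is near these shares. *Fcgr3a*, an Fc receptor, had -2.19 ± 0.40 (limma adjusted p = 4.08e-07) and r = 0.12, *Trem2*, a receptor of myeloid cells, -1.69 ± 0.67 (0.000108) and r = 0.15. The values of *Fcgr3a* were between -2.75 and -1.42. The summed level of macrophage markers was lower in the allogeneic sample in 12 of 12 rats (13.85 to 14.81 against 14.31 to 15.69).

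Markers of proliferating cells did not pass in either direction (0 of 10 by limma, 2 higher at an unadjusted p, 0 by the ordinary test), and 0 had a permutation p under 0.05 for r, with a median of 0.04. For 10 genes, a correlation count of 0 is near the share of all genes. Among the 2 fibroblast markers, *Col1a2* (a collagen chain) was higher (0.55 ± 0.40, limma adjusted p = 0.00431) and had r = 0.06. *Cdsn* had r = -0.62 with *Ubd* (permutation p = 0.026, and 0.149 without array 1 of rat 10) and *Tp63* -0.27.

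**Figure D5:**
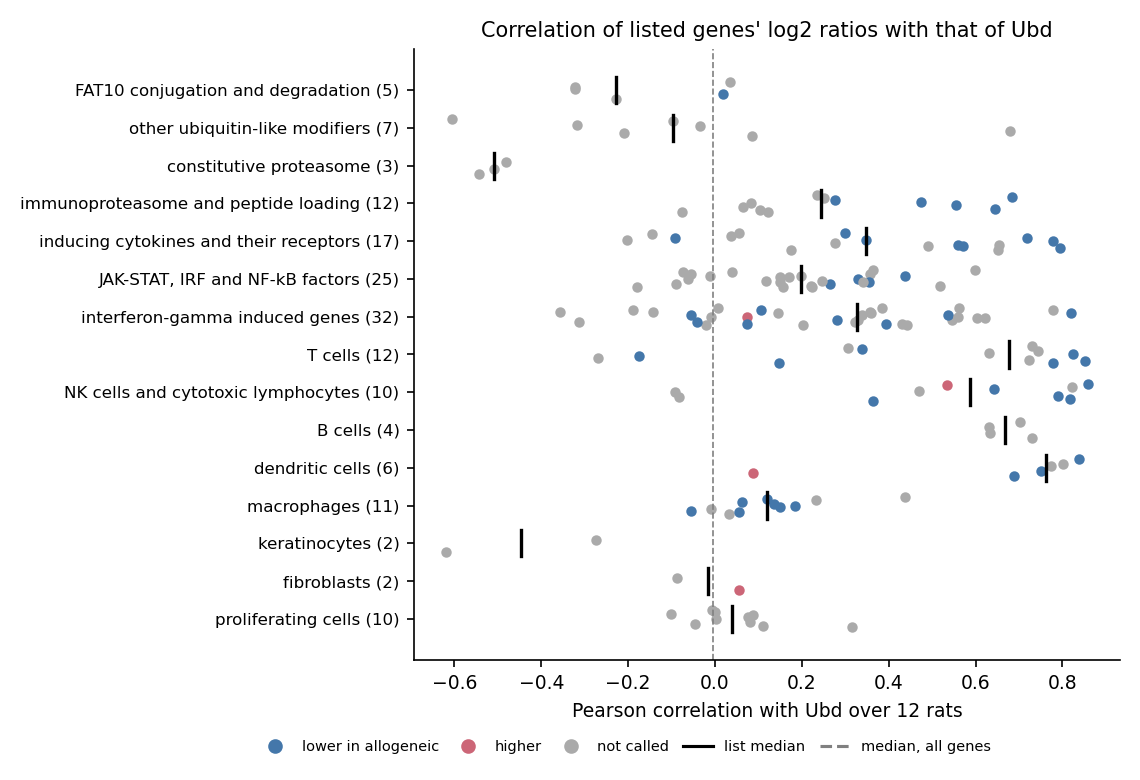
Pearson correlation of the log2 ratio with that of *Ubd* over 12 rats (horizontal axis) for the measured genes of each list (number in brackets), colored by the limma call, with list medians in black and the median of all genes dashed. Medians are highest for dendritic cell (0.76), T cell (0.68), B cell (0.67) and NK cell (0.59) markers, and near 0 for proliferating cells (0.04).

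*Ubd* was also compared with 13 other MHC and NKC genes that the study names, chosen with their results known. Of these, 11 were lower, *Ly6g6e* was higher (0.60 ± 0.38, limma adjusted p = 0.00183) and *Tap1* did not pass (-0.23 ± 0.29, 0.0696). The largest differences were those of *Ly49i9* (-2.28 ± 0.78), *RT1-CE10* (-1.75 ± 0.45), *Ly49si1* (-1.475 ± 0.75) and *Lst1* (-1.46 ± 0.44), and *Aif1*, a calcium-binding protein of macrophages, had -1.27 ± 0.50. *Psmb8* was the only one of the 13 with a permutation p under 0.05 for the correlation with *Ubd* (r = 0.64, rho = 0.71). The others had r between -0.40 (*Ly6g6e*) and 0.30 (*RT1-CE10*), with r = 0.05 for *Lst1* and 0.06 for *Aif1*. Natural killer receptor genes of 1 family share sequence, so that values of single *Ly49* genes are uncertain.

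The mean ratios of the neighbors of *Ubd* in the MHC were far smaller than its own. On the map of the region used for the array, *Ubd* lies in a cluster of olfactory receptor genes. Of the 10 measured genes on each side, 0 of 20 passed limma (0 lower and 2 higher at an unadjusted p, 0 by the ordinary test), and their mean ratios were between -0.11 and 0.09. Over all genes 7.53% were called lower and 8.66% higher, so that a count of 0 among 20 says little by itself. Among the neighbors, *RT1-M5* was above background on only 2 arrays in each channel. *9430032L10Rik* was so on 3 arrays in the allogeneic and 2 in the syngeneic channel. The nearest neighbors were the olfactory receptors *Or5* (-0.04 ± 0.06) and *Or6* (-0.03 ± 0.13). *RT1-M3-2*, a nonclassical class I gene, was the only neighbor with a permutation p under 0.05 for r (0.61, permutation p = 0.0363), and *RT1-M3-1* had 0.52 (0.0823). Of all 211 other MHC genes, 44 were lower and 13 higher. Among these 211, 5 had a positive r at a permutation p under 0.05, against 4.04% of all genes. Without array 1 of rat 10 it was 11, against 3.25% of all genes. The correlation counts of the neighbors and of the MHC genes are near these shares.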

How the data were processed

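Two-color arrays of 12 rats, 2 per rat with exchanged dyes, were analysed. Per the file headers, the authors deposited the scanner output of Feature Extraction 9.5.1.1, with mean spot intensities and local background in Cy3 and Cy5. They also deposited a table of log2 ratios per array, used here as an alternative, of which the background treatment is not given in the sources used here. Its columns correlated by 0.71 to 0.96 with the ratio of the scanner's processed signals turned to allogeneic over syngeneic, so they were taken as already turned, with medians between -0.03 and 0.02. The submitters' processing notes name limma. The labels describe amplification of RNA by PCR and the study's methods a linear amplification, so which was used, and its effect on the ratios, cannot be told here.

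Intensities were corrected by normexp (offset 50) and loess within arrays (limma 3.58.1, R 4.3.3), without control spots and outlier spots. Log2 ratios were averaged over spots, the 2 arrays of a rat, and the probes of a gene. Genes were tested by limma against 0 over 12 rats with Benjamini-Hochberg adjustment over 7210 genes, and correlations with *Ubd* by 100000 permutations, adjusted over the other 7209 genes. For levels, average intensities were made alike between arrays (Aquantile). The number of arrays limits the precision. The labels number the 12 rats as biological replicates, and each array pairs the samples of 1 rat. Of 8453 probes, 736 were named by the study's gene tables, 4323 by accession, 2337 by a current symbol and 1057 as in the files. *Ubd*, the lists and the markers were chosen with earlier results of these data known. The genes named are *Ubd*, 13 other MHC and NKC genes that the study names, up to 5 called members with the largest ratio and defining members per list, the 10 highest and 5 lowest correlations, and 10 neighbors on each side. Others were chosen after their values were seen. Scripts were tested on simulated data. No protein sequence of *Ubd* was used here.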

Additional observations from a re-analysis of the deposited data

How the results depend on the processing

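The mean log2 ratio of *Ubd* stayed below 0 and within 1 SD of -1.43 under every setting tried, from -1.73 with the scanner's processed signals to -1.34 without rat 11 (-1.51 to -1.34 when each rat was left out). The number of listed genes called lower was 46 of 157 and lay between 44 and 55 under other settings (40 to 52 when each rat was left out). The number called higher, 4, became 10 and 15 with only the arrays having the allogeneic sample in Cy5 or in Cy3, and 8 without rat 8 (3 to 8 when each rat was left out). With both arrays of a rat entered and the rat as a random block (replicate block), 50 listed genes were lower and 9 higher, and as separate samples without the block 55 and 9. The same replicate number marks the same rat, whose samples share an array, so that the ratio itself holds the pairing.

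No gene passed for a correlation with *Ubd* (0 when each rat was left out). In these permutation tests a gene alone at the smallest possible p could not pass. Removing slide means gave 5 (*Tnfsf11*, *Spn*, *Olr1471*, and unnamed transcripts with r = 0.93 and -0.96), limma with *Ubd* as a covariate gave 1, and 24 arrays taken as separate samples gave 152, since arrays of a rat are then counted as independent. The correlations of *Ubd* with 16 genes (the 10 highest, the 5 lowest and *Psmb8*) kept their sign under every setting. The dye difference of *Ubd* was 0.35 and passed with median centring in place of loess, and turned to -0.069 without rat 10 or its array 1 (-0.069 to 0.091 when each rat was left out). Ratios reversed for *Calr* (0.10) and *Tap1* (0.13) with only the arrays having the allogeneic sample in Cy3, and for *Ly49i3* (0.028) with its brightest probe. *Calr* passed in few settings, with a limma adjusted p of 0.0465 here and between 0.0591 and 0.203 under 9 other settings. The call was also lost by leaving out single rats for *Calr* (9 rats), *Ifngr2* (8), *Gpr132* (7), *Psmb9* (5), *Nfkbia* (4), *Gzma* (2) and *Klrb1a* (2). Leaving out array 1 of rat 10 was added after the data were seen. No rat correlated under -0.3 with the others, so no sign was turned. *Ubd* rests on 1 probe, and its low allogeneic signals, though above background on all 72 spots, limit its ratio.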
